A study of Homo sapiens with 10 samples.

Results

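The cadherins and desmosomal cadherins of PC3 cells were the 30 genes, of 62656 in the deposited table, whose symbols are CDH followed by digits only, DSG1 to DSG4 or DSC1 to DSC3. PC3 is a prostate cancer cell line from a bone metastasis, recorded in the sample labels as epithelial. The cells were starved overnight and then kept for 24 h in RPMI-1640 with 2 mM glutamine and either 1 µM of GW3965, a synthetic agonist of the liver X receptors (LXRs), or the vehicle DMSO. RNA was sequenced in 5 libraries per condition, and nothing in the labels says whether these came from separate cultures, so p-values measure the spread between these libraries, which may be technical. Values are RPKM, a gene's reads per kilobase after scaling of the libraries, and the question was how the epithelial and mesenchymal cadherins stood to each other and whether GW3965 changed them.

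Cadherins are calcium-dependent adhesion molecules that bind cadherins of the neighbouring cell with their extracellular repeats. Classical cadherins hold catenins on their cytoplasmic tail, which connect the adherens junction to actin, while desmogleins and desmocollins bind plakoglobin and plakophilins, which connect the desmosome to keratin filaments through desmoplakin. In an epithelial-mesenchymal transition (EMT), E-cadherin (CDH1) is classically lost and N-cadherin (CDH2) gained. Repressors of the SNAI and ZEB families bind E-boxes with the letters CAGGTG in such genes.

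The promoters below belong to the 3 expressed desmosomal cadherins and, for comparison, to N-cadherin. They are shown because the desmocollins carried the largest differences among the tested cadherins, and they differ in the E-box, which is in capitals. Each run is 300 bases long, 5′ to 3′ on the gene's strand, from 250 bases before to 50 after a start annotated in RefSeq on GRCh38.p14 (for DSC2 and CDH2 the nearer to the gene's 5′ end in GENCODE 29 of 2 starts): DSC3 at chr18:31042693-31042992 (minus strand), DSC2 at chr18:31102372-31102671 (minus strand), DSG2 at chr18:31497927-31498226 (plus strand) and CDH2 at chr18:28177081-28177380 (minus strand).
DSC3: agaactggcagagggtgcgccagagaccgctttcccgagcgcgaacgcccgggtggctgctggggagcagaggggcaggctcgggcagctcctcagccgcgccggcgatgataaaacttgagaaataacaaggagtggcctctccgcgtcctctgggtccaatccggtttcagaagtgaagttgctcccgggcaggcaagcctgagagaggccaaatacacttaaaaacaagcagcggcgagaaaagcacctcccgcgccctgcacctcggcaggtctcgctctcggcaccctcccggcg
DSC2: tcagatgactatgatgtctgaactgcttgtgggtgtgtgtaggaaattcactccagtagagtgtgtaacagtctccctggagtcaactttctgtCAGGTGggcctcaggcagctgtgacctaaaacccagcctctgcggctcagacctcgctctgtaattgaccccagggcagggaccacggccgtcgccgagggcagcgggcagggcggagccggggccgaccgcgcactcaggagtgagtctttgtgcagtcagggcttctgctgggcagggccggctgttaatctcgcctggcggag
DSG2: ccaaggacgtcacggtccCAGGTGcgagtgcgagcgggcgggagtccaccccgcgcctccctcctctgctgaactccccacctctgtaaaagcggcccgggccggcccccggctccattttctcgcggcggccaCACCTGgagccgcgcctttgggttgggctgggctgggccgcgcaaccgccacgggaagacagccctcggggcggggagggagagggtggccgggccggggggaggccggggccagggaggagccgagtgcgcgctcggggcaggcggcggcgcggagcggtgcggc
CDH2: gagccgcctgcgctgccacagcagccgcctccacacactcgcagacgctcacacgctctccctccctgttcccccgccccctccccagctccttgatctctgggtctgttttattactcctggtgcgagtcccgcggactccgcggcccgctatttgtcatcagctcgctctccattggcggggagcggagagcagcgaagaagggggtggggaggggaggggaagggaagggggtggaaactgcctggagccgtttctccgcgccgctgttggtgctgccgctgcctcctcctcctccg
A search for CAGGTG and its reverse complement CACCTG found 1 E-box in the DSC2 promoter, beginning at base -156 from the start, and 2 in the DSG2 promoter, at -232 and -116. There was no match in the windows of DSC3 and CDH2, nor in those of the other start of DSC2 and of CDH2. Promoters were at hand for 18 of the 30 cadherins, and 4 of these 18 had an E-box, against 20.6% of all 35116 promoters. Those of CDH1, CDH3 and CDH11 were not among the 18 and were not searched. The LXR repeat in its strict form, AGGTCA repeated in the same direction after 4 further bases, on either strand, was in none of the 18 and in 0.0199% of all promoters.

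The libraries held from 30435371 to 41643064 reads, as recovered from the deposited values. The LXR targets ABCA1 and ABCG1, which export cholesterol, rose by 2.29 and 2.13 on the log2 scale (limma, adjusted p = 0.00063 and 0.000124). The libraries DMSO 1, GW3965 1 and GW3965 2 stood apart from the other 7. On the first principal component of 14365 genes, computed without the cadherins, they lay between -19.7 and -17.7, and the others between -3.91 and 21.9. Of the epithelial markers, the summed RPKM of EPCAM, KRT8, KRT18 and KRT19 was 196 to 252 with DMSO and 218 to 263 with GW3965. Nearly all of this sum was keratin, as EPCAM had only 1.20 to 2.16 RPKM. The summed markers of endothelial cells, fibroblasts and leukocytes reached at most 0.908, 1.32 and 0.153 RPKM in a library. Most of the endothelial sum was PECAM1 (0.409 to 0.760 RPKM), and most of the fibroblast sum COL1A1 (0.696 to 1.08 RPKM). KLK3, a defining gene of luminal prostate cells, was listed at 0.

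The cadherins of these cells were mainly mesenchymal and desmosomal. Only 10 of the 30 genes reached a mean of 0.5 RPKM, the level required for a test. Together the 30 genes amounted to 44.0 to 47.3 RPKM in the DMSO libraries, with a median of 45.9, and to 49.8 to 57.1 in the GW3965 libraries, with a median of 56.0. These sums did not overlap between the groups, which is a description without a test. In RNA from whole cultures, fewer cells of a kind and less RNA per cell cannot be told apart. N-cadherin and CDH11 made up 51.8 to 65.8% of the sum with DMSO and 54.3 to 66.9% with GW3965. The desmosomal DSG2, DSC2 and DSC3 made up 18.6 to 28.1% and 21.1 to 29.8%, and the classical epithelial CDH1 and CDH3 2.07 to 3.96% and 1.78 to 3.58%. With the gene lengths of GENCODE 29 in place of those in the deposited values, the share of N-cadherin and CDH11 was 55.8 to 69.9% and 58.1 to 69.6%, and the sums still did not overlap (55.0 to 59.5 and 61.9 to 72.2 RPKM).

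**Figure D1:**
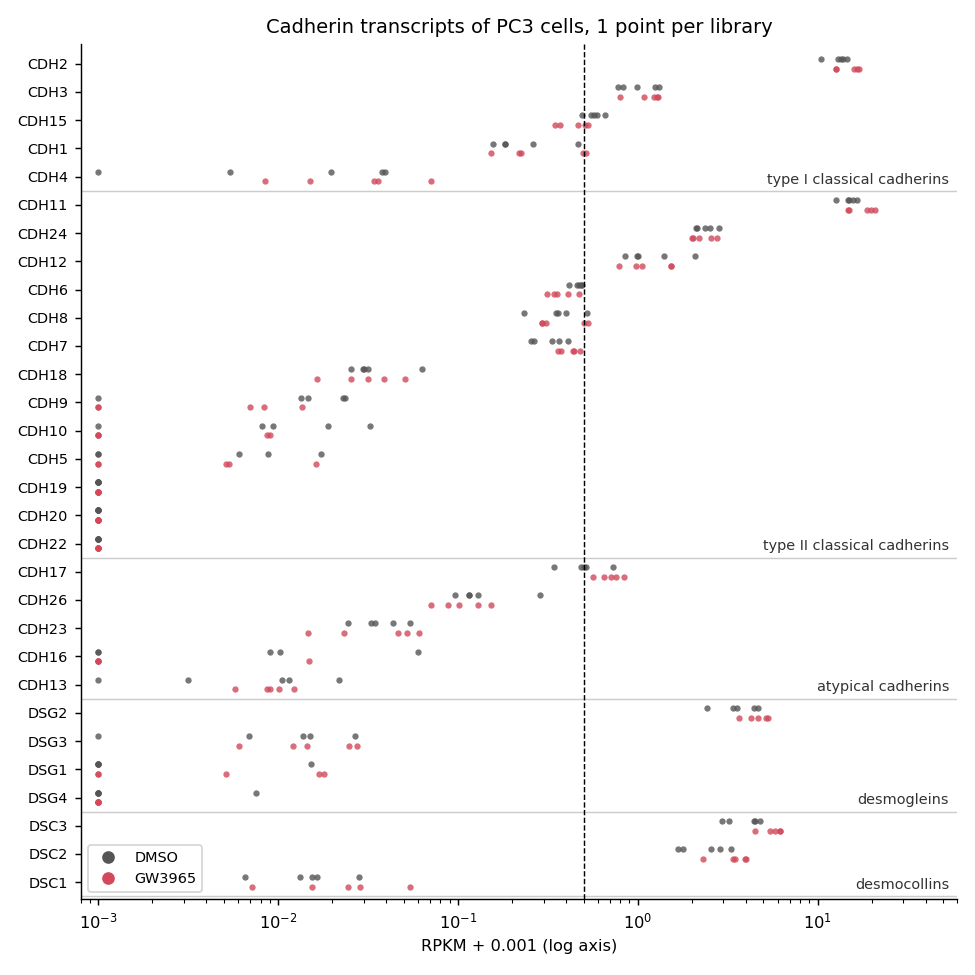
RPKM + 0.001 of the 30 cadherins on a log axis, with 1 point per library in grey for DMSO and red for GW3965, grouped by cadherin class. The dashed line marks the 0.5 RPKM required for a test, and points at the left edge are libraries with no read. CDH11 and CDH2 lie above 10 RPKM in every library, DSC3, DSG2 and DSC2 between 1.67 and 6.20, and the 20 untested genes, among them CDH1, below 0.6 in every library.

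No cadherin passed the test between GW3965 and DMSO. Of the 10 tested, 0 had an adjusted p under 0.05 by limma, where 0.157% of all 20402 tested genes did. At an unadjusted p under 0.05 there were 3 of 10, all of them higher with GW3965 (DSC3, DSC2 and CDH11), against 6.99% of all tested genes in either direction and 4.64% upward. Over all genes, 0.147% passed the adjusted threshold upward and 0.0098% downward. By limma's voom on the recovered reads the counts were 0 of 10 adjusted and 6 of 10 unadjusted, against 0.309 and 6.67% of all genes. Of these 6, CDH15 was lower with GW3965 (voom log2 fold change -0.36, unadjusted p = 0.0314) and the others were higher. The log2 fold change was above 0 for 7 of 10 cadherins, against 51.1% of all tested genes, and its median was 0.22, against 0.00 over all tested genes. In none of the 10 were the groups of libraries without overlap, which they were for 1.84% of tested genes.

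**Figure D2:**
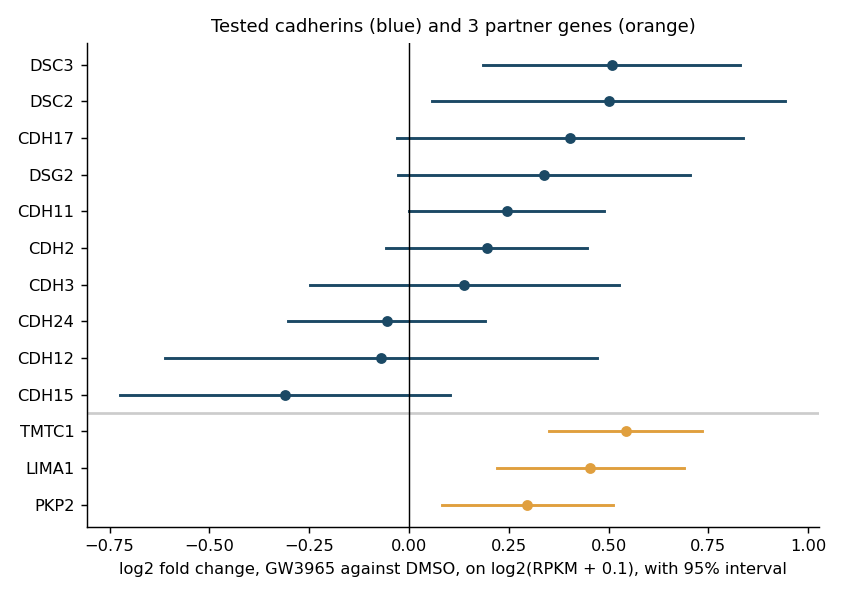
Log2 fold changes of the 10 tested cadherins (blue) and of 3 partner genes (orange), GW3965 against DMSO on log2(RPKM + 0.1), with 95% intervals from limma. The intervals of DSC3, DSC2 and CDH11 lie above 0 before adjustment, CDH15 has the lowest value at -0.31, and among the genes drawn only TMTC1 passed the adjusted threshold.

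The desmocollins DSC3 and DSC2 had the largest differences of the tested cadherins, toward higher values with GW3965, and neither passed the adjusted threshold. DSC3, a desmocollin of the basal layers of stratified epithelia, had 4.81, 3.20, 2.95, 4.43 and 4.49 RPKM in DMSO libraries 1 to 5, and 5.81, 5.47, 6.20, 6.20 and 4.47 in GW3965 libraries 1 to 5. All GW3965 libraries but the fifth lay above every DMSO library, and that library lay below DMSO 1 and just below DMSO 5. The means were 3.98 ± 0.839 and 5.63 ± 0.715 RPKM (SD, n = 5). GW3965 libraries were thus 1.42-fold higher, by 0.51 on the log2 scale (SE 0.15, 95% interval 0.19 to 0.83). DSC3 had the lowest p of the cadherins by limma, 297 genes (DSC3 included) had a p no higher than this, and its adjusted p was 0.361. From 687 to 1806 reads lay behind each value.

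DSC2, the desmocollin of most tissues with desmosomes, had 3.28, 1.79, 1.67, 2.54 and 2.86 RPKM with DMSO and 4.02, 3.94, 3.39, 3.48 and 2.32 with GW3965. As for DSC3, the fifth GW3965 library was the only one of its group below the highest DMSO library, and DMSO 2 and 3 were the lowest of all. The means were 2.43 ± 0.691 and 3.43 ± 0.679 RPKM (SD, n = 5). The difference was 0.50 on the log2 scale (95% interval 0.06 to 0.94), and limma's adjusted p was 0.617.

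DSG2, the desmoglein of simple epithelia and the partner of DSC2, had 4.45, 4.65, 3.55, 2.43 and 3.37 RPKM with DMSO and 5.28, 4.68, 4.27, 3.68 and 5.15 with GW3965. The groups overlapped, with GW3965 3 and 4 below the upper DMSO libraries, and the order of the libraries was not that of the desmocollins: GW3965 5, lowest for DSC3 and DSC2 in its group, was the second highest for DSG2. The means were 3.69 ± 0.894 and 4.61 ± 0.657 RPKM (SD, n = 5), and the log2 difference was 0.34 (95% interval -0.03 to 0.70, limma adjusted p = 0.744). Exons of DSG2 overlap those of the antisense gene DSG2-AS1, and the strand setting of the counting is not given in the sources used here. CDH1, CDH2 and CDH3 likewise have exons that overlap an antisense gene, and CDH11 overlaps AC010533.1 on its own strand.

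**Figure D3:**
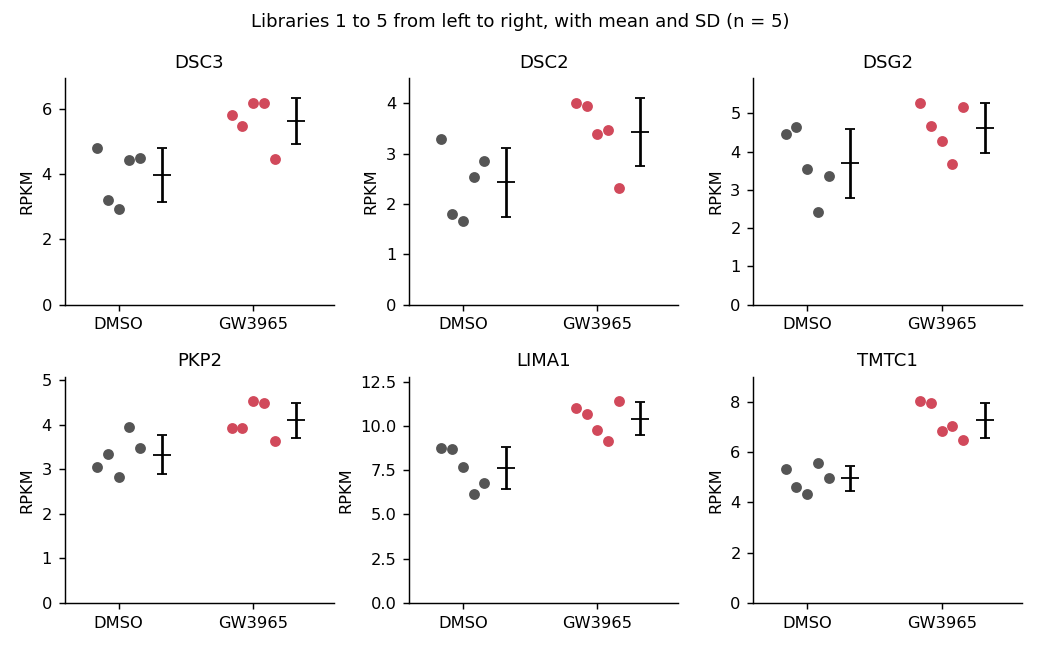
RPKM of DSC3, DSC2, DSG2 and of the partner genes PKP2, LIMA1 and TMTC1 in each library, in the order 1 to 5 within each group, with the mean and SD (n = 5). For DSC3 and DSC2 only GW3965 5 lies within the range of the DMSO libraries, and for LIMA1 and TMTC1 the groups do not overlap.

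The 7 desmosomal cadherin genes lie in 1 cluster on chromosome 18, and the expressed ones were at its ends. In GRCh38 the cluster runs from DSC3 (chr18:30990008-31042815) and DSC2 (chr18:31058840-31102522), both on the minus strand, to DSG2 (chr18:31498043-31549008) on the plus strand. Between them, in this order, lie DSC1, DSG1, DSG4 and DSG3, the genes of the differentiated or hair-forming layers of skin and, for DSG3, of the basal epidermis. Over the 10 libraries, DSC1 had 1 to 8 reads, DSG1 0 to 5, DSG3 0 to 5 and DSG4 a single read in 1 library. None of these 4 reached 0.06 RPKM in any library.

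**Figure D4:**
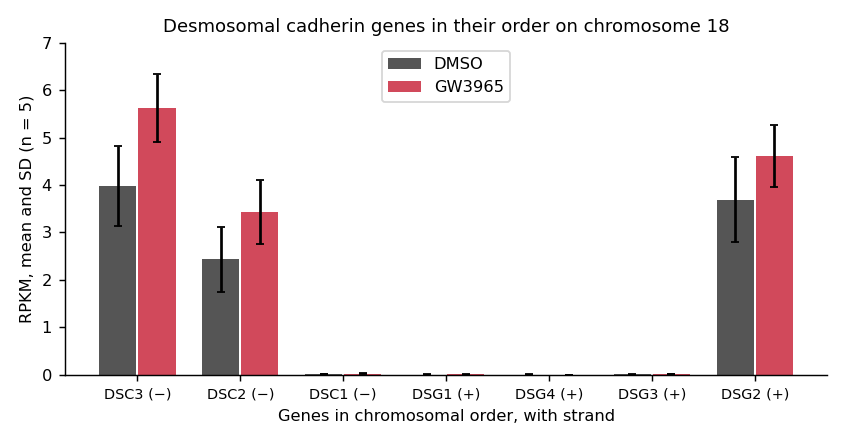
Mean RPKM with SD (n = 5) of the 7 desmosomal cadherin genes in their order on chromosome 18, with DMSO in grey and GW3965 in red. Bars above 2 RPKM appear at the ends of the cluster (DSC3, DSC2 and DSG2), and the 4 genes between them are near 0.

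The mesenchymal cadherins were the most abundant and differed less between the conditions. CDH11, a type II cadherin of osteoblasts and other mesenchymal cells (chr16:64943753-65126112, minus strand), had 12.7, 15.7, 14.8, 16.6 and 14.9 RPKM with DMSO and 14.9, 14.9, 18.7, 19.7 and 20.8 with GW3965. GW3965 3, 4 and 5 lay above every DMSO library, whereas GW3965 1 and 2 lay among them. The means were 14.9 ± 1.46 and 17.8 ± 2.78 RPKM (SD, n = 5). On the log2 scale GW3965 was higher by 0.24 (SE 0.11), and limma's adjusted p was 0.711. Without DMSO 1, GW3965 1 and GW3965 2 it was 0.35 (adjusted p = 0.143). With the first principal component as a covariate, a setting chosen after the data were seen, it was 0.28 and passed the threshold (adjusted p = 0.0377). That setting called 147 of 20402 tested genes, against 32 in the main test.

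N-cadherin, CDH2 (chr18:27950966-28177446, minus strand), had 10.5, 13.6, 13.9, 14.5 and 12.9 RPKM with DMSO and 12.7, 12.7, 16.0, 16.7 and 17.1 with GW3965. Its libraries were ordered much as for CDH11, with GW3965 3, 4 and 5 above all others and DMSO 1 lowest. The means were 13.1 ± 1.57 and 15.0 ± 2.18 RPKM (SD, n = 5), 0.19 apart on the log2 scale (95% interval -0.06 to 0.45, limma adjusted p = 0.814). Without DMSO 1, GW3965 1 and GW3965 2 the difference was 0.27 (limma adjusted p = 0.198). Over 23 alternative settings the lowest limma adjusted p of CDH2 was 0.0528. CDH11 lay above CDH2 in all 10 libraries on the scale of the deposited RPKM. The gene length in the deposited values of CDH2 was 8583 bases, however, against 4950 in GENCODE 29, and with the shorter length CDH2 would lie above CDH11. Likewise DSG2 (9492 against 6190 bases) would lie above DSC3 on the mean of the libraries, though not in every library.

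E-cadherin, CDH1 (chr16:68737225-68835548, plus strand), was far below N-cadherin and below the level required for the test. It had 0.462, 0.182, 0.261, 0.156 and 0.183 RPKM with DMSO and 0.518, 0.498, 0.152, 0.223 and 0.218 with GW3965, from 35 to 121 reads per library. The groups overlapped throughout, and the high values were those of DMSO 1, GW3965 1 and GW3965 2. With no filter on low values, CDH1 had a log2 fold change of 0.24 with an SE of 0.33 (limma, adjusted p = 0.932).

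The log2 ratio of CDH2 to CDH1, each with 0.1 RPKM added, placed the mesenchymal against the epithelial cadherin within each library. It was 4.23, 5.59, 5.28, 5.84 and 5.53 with DMSO and 4.37, 4.42, 5.99, 5.70 and 5.75 with GW3965. The means were 5.29 ± 0.63 and 5.25 ± 0.79 (SD, n = 5), a difference of -0.05 (two-sided exact permutation test, p = 0.984 over 252 labellings, where the smallest possible p is 0.00794). The ratio fell into 2 separate ranges that were not those of the treatment, 4.23 to 4.42 in DMSO 1, GW3965 1 and GW3965 2 and 5.28 to 5.99 in the other 7 libraries. Without those 3 libraries the difference was 0.26 (exact permutation p = 0.171), where too few labellings remain for a p under 0.05. As plain RPKM, CDH2 was 22.6 to 105 times CDH1, and 39.9 to 185 times with the gene lengths of GENCODE 29.

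The same 3 libraries were at an end of the range for several other cadherins. Among the 14 genes averaging 30 reads or more, they were the 3 highest libraries for CDH1, CDH8 and CDH12 and the 3 lowest for CDH2. Over all 20402 tested genes they were the 3 highest for 5.97% and the 3 lowest for 11.8%. CDH8, a type II cadherin of neurons, had 0.501 to 0.526 RPKM in these 3 and 0.231 to 0.397 in the other 7. CDH12, also mainly a brain cadherin, had 1.52 to 2.08 and 0.787 to 1.40, and CDH2 10.5 to 12.7 and 12.9 to 17.1. These libraries belong to both conditions, and what sets them apart was not tested.

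**Figure D5:**
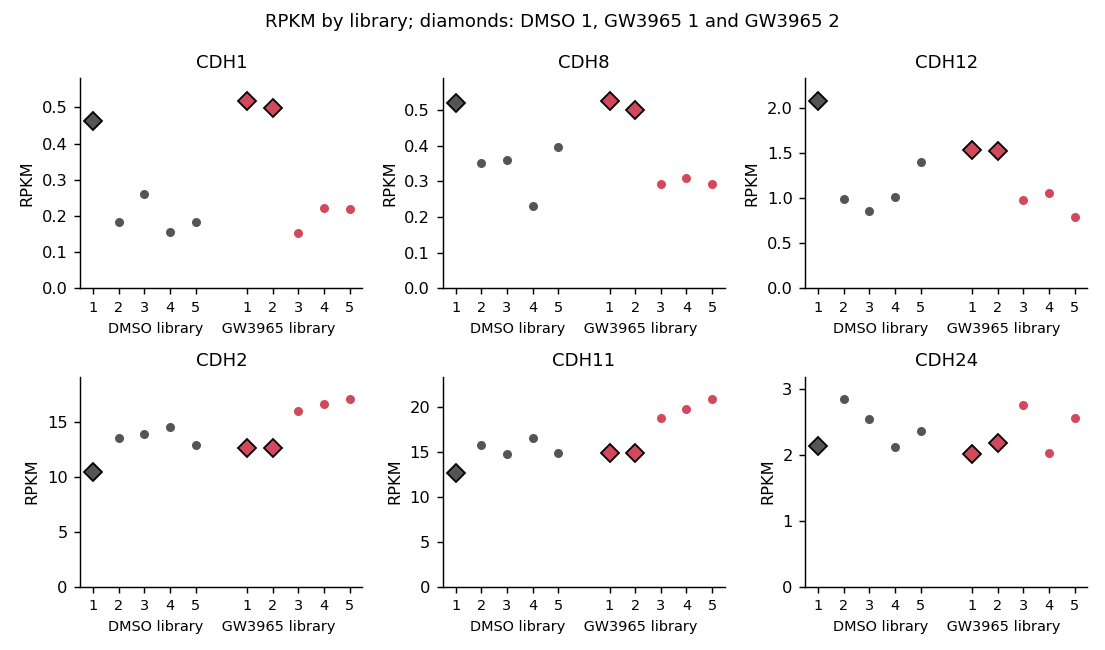
RPKM of CDH1, CDH8, CDH12, CDH2, CDH11 and CDH24 in DMSO and GW3965 libraries 1 to 5, with DMSO 1, GW3965 1 and GW3965 2 drawn as diamonds. The diamonds are the 3 highest points for CDH1, CDH8 and CDH12 and the 3 lowest for CDH2, while those of CDH11 and CDH24 overlap the other libraries.

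P-cadherin, CDH3, the classical cadherin of basal epithelial cells and the neighbour of CDH1 on chromosome 16 (chr16:68636189-68722616, plus strand), was more abundant than CDH1. It had 1.30, 0.775, 0.827, 1.24 and 0.990 RPKM with DMSO and 1.30, 1.23, 1.08, 1.27 and 0.792 with GW3965. The groups covered almost the same range, with a log2 fold change of 0.14 and an SE of 0.18 (limma, adjusted p = 0.944). CDH3 exceeded CDH1 in all 10 libraries.

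CDH24 and CDH12, type II cadherins, were the remaining members above 1 RPKM. CDH24 had 2.13, 2.84, 2.54, 2.11 and 2.36 RPKM with DMSO and 2.01, 2.18, 2.75, 2.03 and 2.55 with GW3965 (log2 fold change -0.06, limma adjusted p = 0.965). CDH12 had 2.08, 0.990, 0.854, 1.01 and 1.40 with DMSO and 1.54, 1.52, 0.982, 1.06 and 0.787 with GW3965 (log2 fold change -0.07, limma adjusted p = 0.983). Both differences were smaller than their SEs of 0.11 and 0.25, and each turned positive without certain libraries (DMSO 2 for CDH24, DMSO 1 or GW3965 5 for CDH12).

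CDH17 and CDH15 lay close to the level required for the test and had log2 fold changes of opposite sign. CDH17, the liver-intestine cadherin, which has no catenin-binding tail, had 0.732, 0.505, 0.486, 0.515 and 0.342 RPKM with DMSO and 0.842, 0.7096, 0.647, 0.757 and 0.565 with GW3965. DMSO 1 was the only library of its group inside the GW3965 range, and the log2 fold change was 0.40 with an SE of 0.20 (limma, adjusted p = 0.741). CDH15, the cadherin of muscle cells, had 0.567, 0.487, 0.661, 0.548 and 0.591 with DMSO and 0.348, 0.463, 0.369, 0.511 and 0.531 with GW3965. Its lowest 3 libraries were of the GW3965 group, with a log2 fold change of -0.31 and an SE of 0.19 (limma, adjusted p = 0.818).

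Of the 20 untested genes, 15 had more than 3 reads in at least 1 library. CDH6, the kidney cadherin, had 0.417 to 0.488 RPKM with DMSO (median 0.474) and 0.314 to 0.470 with GW3965 (median 0.357). CDH7 had 0.255 to 0.409 (median 0.333) and 0.358 to 0.480 (median 0.435). With no filter, voom gave log2 fold changes of -0.31 for CDH6 and 0.37 for CDH7 (unadjusted p = 0.0281 and 0.0209), neither of which passed after adjustment (adjusted p = 0.814 and 0.794). In that setting 0 of 27 cadherins with any read were called and 8 had an unadjusted p under 0.05, against 5.69% of all genes.

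The other untested genes were sparse. CDH26, an epithelial cadherin, had 13 to 57 reads with its highest value, 0.287 RPKM, in DMSO 1, and CDH23, the tip-link cadherin of hair cells, 9 to 36 reads. CDH18 had 4 to 14 reads, CDH4 (R-cadherin) 0 to 17, CDH16, the kidney-specific cadherin, 0 to 9, and CDH13 (T-cadherin, which is anchored by a lipid) 0 to 7. CDH9 and CDH10 had 0 to 4 reads, and the endothelial CDH5 (VE-cadherin) 0 to 3. CDH19, CDH20 and CDH22 had no read in any library, which allows up to 3 reads in each, or 0.0103 to 0.0144, 0.0172 to 0.0241 and 0.0144 to 0.0201 RPKM. Reads were not tagged by molecule, so these limits cover counting error alone.

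The genes that work with cadherins were read from 6 lists. Of the catenins 5 of 8 were tested and 0 were called by limma, 0 also having an unadjusted p under 0.05. Their log2 fold changes lay between -0.04 (CTNNA3) and 0.01 (PKP4). CTNNA1, the alpha-catenin that joins adherens junctions to actin and that PC3 cells are known to have lost, had 0.134 to 0.213 RPKM, while CTNNB1 (beta-catenin) had 24.9 to 30.9. CTNND1, p120-catenin, which keeps cadherins at the membrane, had 1.18 to 1.48 RPKM.

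Among the proteins of the desmosomal plaque, 5 of 6 were tested and 0 were called by limma, with 1 at an unadjusted p under 0.05. The median log2 fold change was 0.06, from 0.01 for PKP3 to 0.30 for PKP2. PKP2, plakophilin 2, had 3.04, 3.33, 2.82, 3.96 and 3.48 RPKM with DMSO and 3.92, 3.92, 4.53, 4.49 and 3.63 with GW3965. Only DMSO 4 reached the range of the GW3965 libraries (SE 0.10, limma adjusted p = 0.482). Desmoplakin, DSP, which ties desmosomes to keratin filaments, was near 0 in these cells, with 0.0431 to 0.0673 RPKM from 18 to 31 reads, next to 9.98 to 11.5 RPKM for plakoglobin (JUP) and 29.4 to 44.7 for PKP1.

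Of the genes that process cadherins, 9 of 9 were tested and 1 passed the threshold. This was TMTC1 (chr12:29500840-29784759, minus strand), of the family of enzymes that attach O-mannose to the extracellular repeats of cadherins. It had 5.31, 4.59, 4.34, 5.57 and 4.98 RPKM with DMSO and 8.03, 7.96, 6.83, 7.04 and 6.47 with GW3965, without overlap. The log2 fold change was 0.54 with an SE of 0.09, or 1.46-fold (limma, adjusted p = 0.0459). The call was lost without any single library other than DMSO 4 (adjusted p 0.0596 to 0.136) and with the replicate number as a block (0.132). In all it was lost in 14 of 23 alternative settings, over which the log2 fold change lay between 0.47 and 0.59 and the adjusted p between 0.00455 and 0.154. TMTC4, of the same family, had the lowest value of the list at -0.13.

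Nectins and actin linkers had 6 of 7 genes tested and 0 called by limma, with 1 at an unadjusted p under 0.05. That gene was LIMA1, which stabilizes actin at cadherin-catenin complexes, with 8.78, 8.70, 7.70, 6.15 and 6.76 RPKM with DMSO and 11.0, 10.7, 9.79, 9.16 and 11.4 with GW3965. The groups did not overlap, and the log2 fold change of 0.45 (SE 0.11) had an adjusted p of 0.206 by limma. NECTIN1 was at the lower end of the list with -0.02, and NECTIN4 was near 0.

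For the regulators of cadherin transcription, 5 of 9 were tested, and 0 were called or had an unadjusted p under 0.05 by limma. The log2 fold changes lay between -0.30 for the E-box repressor SNAI1, with means of 0.682 ± 0.148 and 0.538 ± 0.139 RPKM (SD, n = 5), and 0.09 for ZEB1, another E-box repressor, with 3.56 ± 0.997 and 3.72 ± 0.819. GRHL2, OVOL1 and OVOL2, factors that maintain the epithelial state, and the E-box repressor ZEB2 were near 0, with group means of at most 0.0355 RPKM. ZEB2 still had 92 reads with DMSO and 166 with GW3965. With no filter, voom gave it a log2 fold change of 0.86 (unadjusted p = 0.0134, adjusted p = 0.722). Of the other genes of the cadherin superfamily, 10 of 27 were tested and by limma 0 were called and 0 had an unadjusted p under 0.05. Their log2 fold changes lay between -0.14 (PCDH18) and 0.25 (CDHR3).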

How the data were processed

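Poly-A selection is named in the sample records, whereas the methods describe stranded total RNA depleted of ribosomal RNA. Single reads of 50 bases were aligned with HISAT2 2.1.0 and counted with HTSeq 0.11.2 on hg38 per the submitters' processing notes. In the methods a mouse genome is named, although every gene of the table is human. The authors deposited RPKM values, 1 column per library. Groups were taken from the sample titles.

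Reads were recovered from the deposited RPKM values: 99.99% of the values above 0 were whole multiples of 1 step (tolerance 0.0001), 4 7SL genes being scaled by their annotated length. No libraries were near-identical.

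The main test was limma 3.58.1 (R 4.3.3, lmFit and eBayes with trend) on log2(RPKM + 0.1) for the 20402 genes averaging 0.5 RPKM or more. It was two-sided and Benjamini-Hochberg adjusted over all tested genes, with a threshold of 0.05. On this scale the change of sparse genes is understated. Limma's voom on the recovered reads was an alternative, since RPKM is not a count. The CDH2 to CDH1 ratio was tested with an exact permutation test (SciPy 1.17.1). The fit was tested on simulated data. Same-numbered libraries did not deviate together, with correlations of 0.149, -0.0488, 0.0386, 0.160 and -0.138 for numbers 1 to 5. Positions are those of GENCODE 29 on GRCh38. Promoters are from RefSeq.

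The cadherins, the partner lists and the markers were chosen with earlier results of these data known. Named were all tested cadherins, the untested ones with reads, and of the partner lists the genes past the threshold, at both ends or near 0, with ABCA1 and ABCG1 as checks. CTNNB1, CTNND1, JUP and PKP1 were named after their values were seen. Alternatives were other pseudocounts, filters, scalings and models, the replicate number as a block and the loss of each library. The first principal component as a covariate, the loss of the 3 libraries that stood apart voom without a filter and annotated gene lengths for the CDH2 to CDH1 ratio were chosen after the data were seen.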

Additional observations from a re-analysis of the deposited data

Results flagged for a closer look

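Among 76 groups of 5 libraries, those of the tested cadherins and of the partner genes included, 4 held a library whose gap to its nearest neighbour took more than 0.71 of the range of the group on the scale of log2(RPKM + 0.1). Chance gives about 1 in 20, or 3.8 groups. None of the 4 belonged to a cadherin. DMSO 4 was the highest of its group for CTNNB1 (gap 0.723 of the log2 range) and the lowest for ADAM10, a protease that sheds cadherins (0.775), and for ZEB1 (0.775). GW3965 2 was the lowest of its group for SNAI1 (0.714). On the scale of RPKM itself the gaps were 0.744 for CTNNB1 and 0.724 for ADAM10, while those of ZEB1 (0.698) and SNAI1 (0.647) stayed under the limit, and DMSO 1 passed it as the highest of its group for ABCA1 (0.782).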

How the results depend on the processing

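The number of cadherins called was 0 of those tested in 22 of 23 alternatives and 1, CDH11, with the first principal component as a covariate. The 10 tested cadherins kept the sign of their log2 fold change in every alternative with a value, apart from CDH12, which was 0.12 without DMSO 1 and 0.05 without GW3965 5, and CDH24, which was 0.00526 without DMSO 2. With the loss of 1 library, CDH12 ranged from -0.18 to 0.12 and CDH24 from -0.12 to 0.00526. Losing 1 library also moved the log2 fold change by over 1.5 times for CDH2 without DMSO 1 (0.12) and for DSG2 without DMSO 4 (0.20). For CDH3 it did so without DMSO 1 (0.22), DMSO 2 (0.05), DMSO 3 (0.07), GW3965 1 (0.09) or GW3965 5 (0.25). Other settings moved values as far, such as a pseudocount of 1 for CDH17 (0.17), CDH15 (-0.12) and CDH3 (0.08). Library weights did so for DSG2 (0.21) and CDH3 (0.21). None of these values passed the threshold. DSC3 lay between 0.41 and 0.60 (adjusted p 0.153 to 0.642) and DSC2 between 0.38 and 0.63 (0.332 to 0.913). CDH15 and CDH17 had no value with a minimum mean of 1 RPKM, nor CDH15 without DMSO 3 or DMSO 5. The difference in the CDH2 to CDH1 log2 ratio turned positive with a pseudocount of 1 (0.105), without the 3 libraries that stood apart (0.256), and without DMSO 2 (0.0279), DMSO 4 (0.0883), DMSO 5 (0.0110), GW3965 1 (0.172) or GW3965 2 (0.160). It ranged from -0.313 to 0.172 with the loss of 1 library, and no setting brought it past the threshold. The settings without the 3 libraries and with the replicate number as a block have too few labellings for a p under 0.05. They could therefore not pass.

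The count over all genes, 32, was 21 with no filter, 20 without a trend, 56 with library weights, 63 by voom, 52 by voom without a filter, 18 without the 3 libraries and 147 with the principal component. With the loss of 1 library it ranged from 17 to 38, and it fell by more than 1.5 times without DMSO 3 (18) or GW3965 2 (17), 3 (19), 4 (17) or 5 (21). The cause was not tested. With the replicate number as a block it was 16, no cadherin was called, the ratio difference remained -0.05 (exact permutation p = 0.938) and TMTC1 lost its call (adjusted p = 0.132). At an unadjusted p under 0.05 by limma the block gave more, 1798 genes against 1427 and 5 of 10 cadherins against 3. Only number 4 correlated best with its own number, so the numbers did not pair the libraries. The changes under the block are therefore no measure of a weaker or stronger effect. Depth limits the genes below 0.5 RPKM, such as CDH1 with 35 to 121 reads.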
